A study of Mus musculus with 22 samples.

Results

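The genes described here are 32 genes of fatty acid oxidation and of the PPAR alpha response, measured in terminal ileum. All mice were NOD, the inbred line known for spontaneous autoimmune diabetes. The genes were taken by symbol, and each was read on its probe set of highest mean over the 22 Affymetrix arrays. Of the 32 genes, 31 had a probe set of their own among the 18193 genes of the array, and Cyp4a10 was left out because its only probe set is shared with Cyp4a31. The groups were control mice (3 females and 5 males), PAT mice (3 females and 5 males) and STAT mice (3 females and 3 males). PAT stands for pulsed antibiotic treatment at therapeutic doses, and STAT for sub-therapeutic antibiotic treatment. All 3 groups share the NOD background and the tissue, and the sources used here do not give the drugs, doses or ages. Total RNA of the whole tissue was measured, and all values below are log2 expression from robust multi-array average (RMA) normalization. Nothing in the labels says that the arrays came from separate animals, so p-values measure the spread between these arrays only.

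Fatty acids taken up by an enterocyte are bound by small fatty acid-binding proteins, activated to acyl-CoA and either built into lipids for export or oxidised. Oxidation of long chains needs the carnitine shuttle into mitochondria, followed by repeated cycles of dehydrogenation, hydration, a further dehydrogenation and thiolytic cleavage, and peroxisomes run a related pathway. PPAR alpha is a nuclear receptor that is activated by fatty acids, pairs with RXR and raises the expression of many of these genes in liver and intestine. It binds DR1 elements, which are direct repeats of the hexamer AGGTCA spaced by a single base.

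Among the members, 3 passed the test in PAT against control mice, each with a higher level in PAT: Fabp1, Creb3l3 and Acot1. The 250 bases before their RefSeq starts (GRCm38.p6) are shown because the promoter is where a DR1 element could lie, together with those of Fabp2, the intestinal paralogue of Fabp1, which did not pass. The motif searched, on both strands, was AGGTCA, then any 1 letter, then AGGTCA. Capitals mark its best match where it had at most 2 mismatches over the 12 fixed letters.
Fabp1, chr6:71199629-71199878, plus strand: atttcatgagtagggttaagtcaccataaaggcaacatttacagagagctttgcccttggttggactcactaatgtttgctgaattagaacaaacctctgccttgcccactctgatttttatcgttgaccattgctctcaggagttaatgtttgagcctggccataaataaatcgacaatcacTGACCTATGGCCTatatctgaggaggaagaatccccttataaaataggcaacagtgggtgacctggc
Creb3l3, outer start, chr10:81098873-81099122, minus strand: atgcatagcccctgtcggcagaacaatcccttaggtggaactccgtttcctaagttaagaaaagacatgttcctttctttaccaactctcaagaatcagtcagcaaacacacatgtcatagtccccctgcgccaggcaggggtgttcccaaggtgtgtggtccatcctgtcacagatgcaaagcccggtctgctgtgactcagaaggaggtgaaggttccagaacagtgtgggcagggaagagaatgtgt
Creb3l3, inner start, chr10:81092592-81092841, minus strand: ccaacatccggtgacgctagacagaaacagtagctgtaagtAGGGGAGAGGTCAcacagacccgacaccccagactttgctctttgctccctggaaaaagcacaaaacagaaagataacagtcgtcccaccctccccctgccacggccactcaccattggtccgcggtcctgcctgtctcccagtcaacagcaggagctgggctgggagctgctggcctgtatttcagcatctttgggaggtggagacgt
Acot1, chr12:84009252-84009501, plus strand: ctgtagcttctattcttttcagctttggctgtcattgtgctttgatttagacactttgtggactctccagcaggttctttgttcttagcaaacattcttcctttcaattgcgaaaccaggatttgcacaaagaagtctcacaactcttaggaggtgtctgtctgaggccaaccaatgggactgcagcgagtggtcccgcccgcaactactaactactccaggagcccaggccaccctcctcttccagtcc
Fabp2, chr3:122894822-122895071, plus strand: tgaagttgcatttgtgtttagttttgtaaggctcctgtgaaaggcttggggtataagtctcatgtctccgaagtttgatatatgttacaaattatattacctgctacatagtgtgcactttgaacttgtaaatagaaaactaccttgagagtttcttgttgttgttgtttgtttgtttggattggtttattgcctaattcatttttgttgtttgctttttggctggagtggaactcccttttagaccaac

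The Fabp1 match, TGACCTATGGCCT, lies on the opposite strand, 67 to 55 bases before the start, and differs from the motif at 1 letter. At most 1 mismatch occurred in 0.484% of the 32851 mouse promoter windows of this length. Among the 28 members with a window, only Fabp1 had such a match. At most 2 mismatches occurred in 3.24% of windows and in 5 members, namely Fabp1, Creb3l3, Cd36, Etfa and Plin2. Creb3l3 has 2 annotated starts: the match lies 209 to 197 bases before the inner one, whose window falls inside the annotated gene (81084329 to 81098872), and the window before the outer start holds no match. These matches describe letters in a window and were not tested for binding, and the absence of a match in Acot1 and Fabp2 covers only these 250 bases.

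In all, 3 arrays stood apart and touch some of the values below. The array of PAT female 1 read 10.37 for Lct, the lactase of the proximal small intestine, where the other arrays read 4.18 to 4.81, and it had the lowest value, 9.61, of the ileal bile acid transporter Slc10a2. It was also highest for the B cell markers Ms4a1 (9.16, against 4.31 to 5.56 elsewhere), Cd22 (7.51, against 6.04 to 6.51) and Cd79a (6.02, against 4.78 to 5.5). The arrays of STAT male 2 and STAT male 3 had mean deviations of 10 enterocyte markers from their average over all arrays of -1.03 and -0.62 on the log2 scale, against -0.26 to 0.42 elsewhere. Their smooth muscle markers deviated by 0.56 and 0.50, within the range of the other arrays (-0.84 to 0.70, the highest on STAT female 3). Among these markers, Myh11 read 12.02 and 12.09, against at most 11.77 elsewhere. The stem cell markers Olfm4 (13.32 and 13.26, at most 13.03 elsewhere) and Smoc2 (10.08 and 10.17, at most 9.97 elsewhere) were also highest there. The other stem cell markers lay within the range found elsewhere on both of these arrays. The 3′ minus 5′ difference of their beta-actin probe sets was 0.59 and 0.60, against 0.28 to 0.42 on the others. In whole tissue, fewer cells of a type and less RNA per cell cannot be told apart. Fabp6, the ileal bile acid-binding protein, read 13.93 or more on every array. The 3′ minus 5′ difference of Gapdh, a measure of RNA and labelling quality, was -0.26 to -0.09 on control arrays and -0.23 to -0.03 on PAT arrays.

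In PAT against control mice, with the sexes averaged, 3 of the 31 genes were higher and 0 lower at a Benjamini-Hochberg adjusted p under 0.05 in limma. Over all 18193 genes the same contrast called 11% of genes, 4.61% higher and 6.38% lower. At an unadjusted p under 0.05 the share was 25.8% of the members and 24.1% of all genes. The median difference of the members was 0.059 and that of all genes -0.005. At the unadjusted threshold the share of members was near that of the array as a whole. Without the 3 arrays that stood apart, 2 members were called, Fabp1 at 1.55 ± 0.32 (adjusted p = 0.0056) and Creb3l3 at 0.79 ± 0.16 (adjusted p = 0.0054), and in females alone 0 were.

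The largest difference was that of Fabp1, the liver-type fatty acid-binding protein, which also carries fatty acids in enterocytes and is a classical PPAR alpha target. Its log2 levels in females were 10.80, 11.67 and 11.48 in controls, 13.40, 12.95 and 12.96 in PAT mice, and 12.12, 12.31 and 10.78 in STAT mice. Those in males were 11.25, 11.36, 10.23, 9.51 and 10.42 in controls, 12.44, 10.86, 11.99, 12.58 and 12.19 in PAT mice, and 10.95, 11.50 and 11.49 in STAT mice. All PAT females were above all control females, whereas in males PAT male 2 lay within the control range and the other 4 PAT males lay above it. The PAT level was 1.62 ± 0.29 (SE) log2 units above control, a 3.08-fold difference with a 95% interval of 1.03 to 2.22 (limma adjusted p = 0.0011, n = 8 and 8). It was 1.46 ± 0.35 in males (adjusted p = 0.013) and 1.79 ± 0.45 in females (adjusted p = 0.035). A second, dimmer probe set of Fabp1 gave 1.87 ± 0.29 (adjusted p = 0.00039 over all probe sets). The female call was lost in 5 of 6 leave-one-out fits, all but the one without PAT female 3 (adjusted p up to 0.13, 1.64 without PAT female 1), and with the Gapdh 3′ minus 5′ difference as a covariate the male value was 1.28 ± 0.40 (adjusted p = 0.064).

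Fabp2, the intestinal-type fatty acid-binding protein, was not called between PAT and control. Its log2 levels were 14.52, 14.60 and 14.61 in control females, 14.67, 14.57 and 14.62 in PAT females and 14.49, 14.63 and 14.53 in STAT females. Males read 14.69, 14.54, 14.57, 14.47 and 14.56 in controls, 14.66, 14.72, 14.74, 14.51 and 14.58 in PAT and 14.55, 14.05 and 14.22 in STAT mice. PAT and control overlapped in both sexes, and STAT male 2 and STAT male 3 lay below all other arrays. The PAT minus control difference was 0.06 ± 0.06 (95% interval -0.07 to 0.19, adjusted p = 0.64). The uptake proteins Cd36, a scavenger receptor and fatty acid translocase, Slc27a2 and Slc27a4, fatty acid transport proteins with acyl-CoA synthetase activity, did not pass either. Their differences were 0.43 ± 0.33 (adjusted p = 0.48), -0.11 ± 0.15 (0.72) and -0.26 ± 0.11 (0.12). Slc27a4 read 10.69 to 11.19 in the 8 controls and 10.46 to 10.94 in the 8 PAT arrays, with an overlap between 10.69 and 10.94.

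Creb3l3 encodes a membrane-bound transcription factor of liver and small intestine that is released by proteolysis and acts with PPAR alpha on lipid genes. Female log2 levels were 10.55, 10.75 and 10.79 in controls, 11.62, 10.97 and 11.89 in PAT mice, and 10.47, 11.19 and 10.09 in STAT mice. Male levels were 10.66, 10.72, 10.69, 10.40 and 10.73 in controls, 11.67, 11.49, 11.63, 11.00 and 11.64 in PAT mice, and 10.71, 8.95 and 9.60 in STAT mice. Every PAT array lay above every control array. Of the 31 members this held for Creb3l3 alone, and 0 members had every PAT array below every control array, beside 0.544% and 1.15% of all genes. The difference was 0.82 ± 0.20, a 1.77-fold level with an interval of 0.40 to 1.24 (adjusted p = 0.011), and it kept its call in all 16 leave-one-out fits. Males gave 0.85 ± 0.25 (adjusted p = 0.036, lost in 8 of 10 leave-one-out fits, all but those without control male 5 or PAT male 4, up to 0.078) and females 0.79 ± 0.32 (adjusted p = 0.16). The receptor gene Ppara itself read 9.48 to 9.84 in controls and 8.52 to 9.90 in PAT mice, with a difference of -0.24 ± 0.13 (adjusted p = 0.29).

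Acot1, a cytosolic thioesterase that returns acyl-CoA to free fatty acid, was the third call. Its log2 levels in females were 9.31, 9.68 and 9.64 in controls, 10.41, 10.25 and 10.03 in PAT mice, and 9.87, 10.18 and 9.19 in STAT mice. In males they were 9.87, 9.51, 9.39, 9.30 and 9.42 in controls, 10.03, 9.56, 10.20, 10.39 and 9.41 in PAT mice, and 9.40, 10.34 and 10.31 in STAT mice. The PAT and control females were apart, and the males overlapped through PAT male 2 and PAT male 5. The difference was 0.56 ± 0.17, or 1.47-fold (interval 0.20 to 0.91, adjusted p = 0.037). This call was lost in 12 of 16 leave-one-out fits, all but those without PAT female 3, control male 1, PAT male 2 or PAT male 5 (adjusted p up to 0.10), and at 0.39 ± 0.20 (adjusted p = 0.33) with the Gapdh covariate. Without PAT female 1, STAT male 2 and STAT male 3 together it was 0.51 ± 0.16 (adjusted p = 0.061). Acot2, the mitochondrial paralogue, gave 0.36 ± 0.15 (adjusted p = 0.15) on its brighter probe set and 0.54 ± 0.14 (adjusted p = 0.022 over all probe sets) on its dimmer one. A further probe set matches both genes and was not used.

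**Figure D1:**
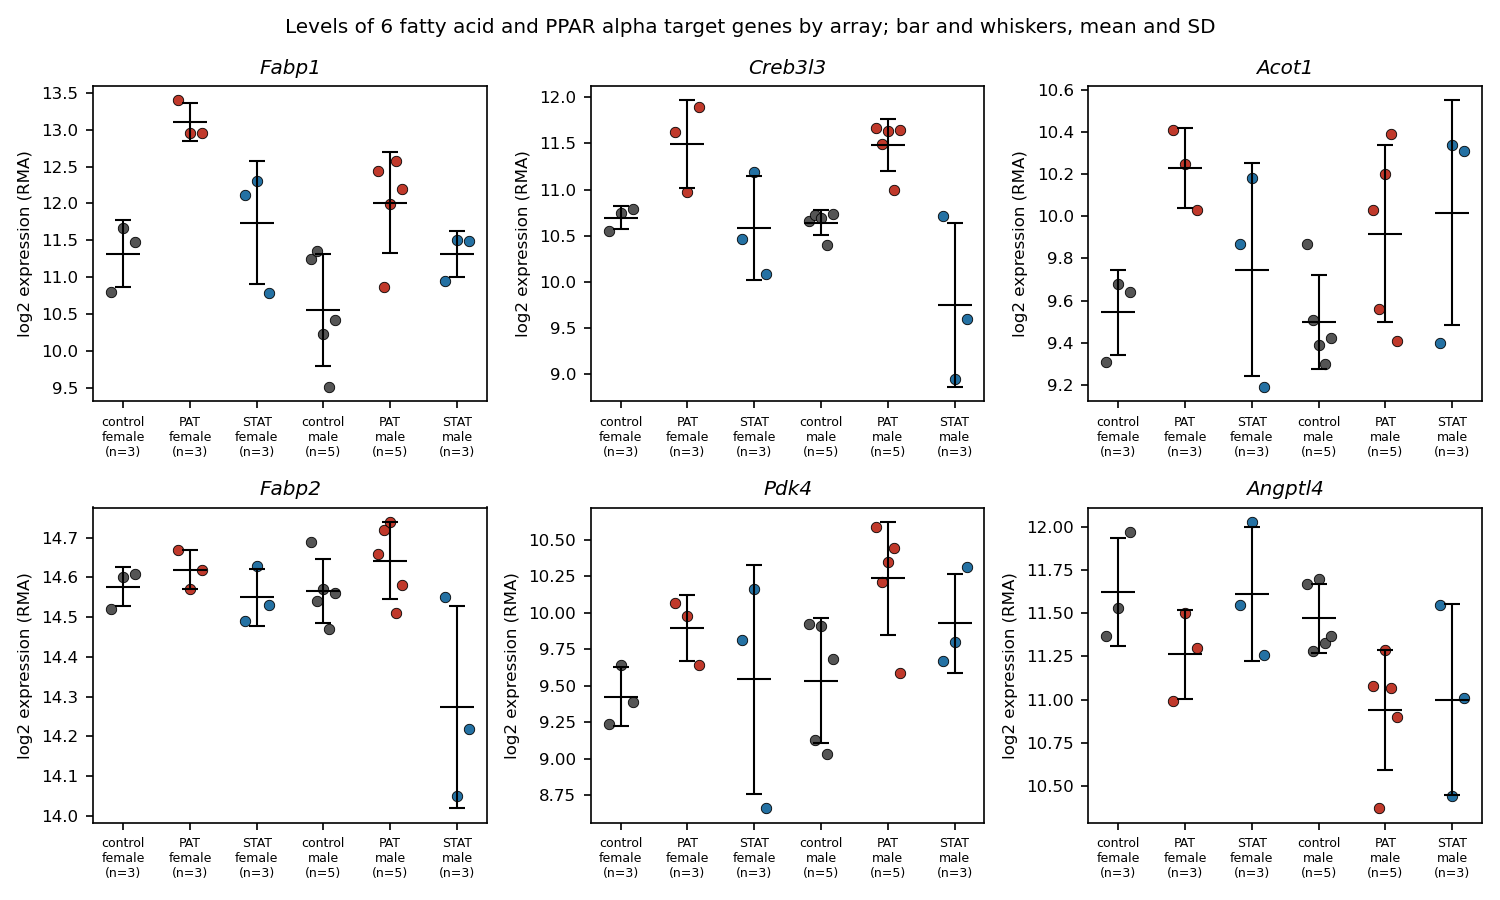
Log2 expression (RMA, y axis) of 6 genes by group (x axis), 1 point per array, with the mean as a bar and the SD as whiskers; groups hold 3 to 5 arrays. All 8 PAT arrays of Creb3l3, from 10.97 to 11.89, lie above all 8 control arrays, which end at 10.79.

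Of the other PPAR alpha targets, Pdk4, the kinase that inhibits pyruvate dehydrogenase and spares glucose, gave the larger difference. It read 9.24, 9.64 and 9.39 in control females, 10.07, 9.98 and 9.64 in PAT females, 9.92, 9.13, 9.91, 9.03 and 9.68 in control males, and 10.59, 10.21, 10.35, 10.44 and 9.59 in PAT males. The groups overlapped between 9.59 and 9.92, and the difference of 0.59 ± 0.20 (interval 0.17 to 1.0) had an adjusted p of 0.062 (0.029 without PAT male 5). Angptl4, a secreted inhibitor of lipoprotein lipase, pointed the other way at -0.44 ± 0.16 (adjusted p = 0.08), with 11.28 to 11.97 in controls and 10.37 to 11.50 in PAT mice. Plin2, a coat protein of lipid droplets, gave 0.13 ± 0.09 (adjusted p = 0.39). Among these targets, Fabp1, Creb3l3 and Acot1 thus rose, while Pdk4 and Angptl4 had estimates of opposite sign that did not pass.

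The 17 mitochondrial members cover the carnitine shuttle (Cpt1a, Cpt2, Slc25a20), the acyl-CoA dehydrogenases (Acadm, Acadl, Acadvl, Acads), electron transfer to the respiratory chain (Etfa, Etfb, Etfdh), the later steps (Hadha, Hadhb, Hadh, Acaa2) and the auxiliary enzymes for unsaturated chains (Eci1, Eci2, Decr1). None of the 17 passed in any of the 12 contrasts fitted, and 1, Hadh, had an unadjusted p under 0.05 in PAT against control with the sexes averaged. In that contrast their differences ran from -0.18 in Slc25a20 to 0.11 in Eci2, with 10 above and 7 below zero and a median of 0.035. The 95% intervals reached from -0.36 to 0.29, each for a single gene, which corresponds to -22.2% to 22.1% on the linear scale. These values hold for the brightest probe set of each gene. A second, dimmer probe set of Slc25a20 gave -0.32 ± 0.11 (limma unadjusted p = 0.0097, adjusted p = 0.082 over all probe sets), outside the range of differences above. Cpt1a, the outer-membrane enzyme that controls entry, read 10.87 to 11.12 in controls and 10.71 to 11.24 in PAT mice, a difference of 0.10 ± 0.08 (adjusted p = 0.47). Hadh, the dehydrogenase of the third step for short chains, gave -0.16 ± 0.05 (interval -0.27 to -0.05, adjusted p = 0.056, and between 0.022 and 0.049 without PAT female 3, control male 4, PAT male 1 or PAT male 3), with 13.88 to 14.06 in controls and 13.68 to 14.02 in PAT mice.

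The peroxisomal members did not pass. Ehhadh, the bifunctional hydratase and dehydrogenase, differed by 0.07 ± 0.13 (adjusted p = 0.83) between PAT and control. Acaa1b, a peroxisomal thiolase, differed by 0.43 ± 0.26 (interval -0.11 to 0.97, adjusted p = 0.35). Its arrays were spread widely, down to 8.30 in controls and from 8.90 to 10.60 in PAT mice, and probe sets it shares with Acaa1a were not used.

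**Figure D2:**
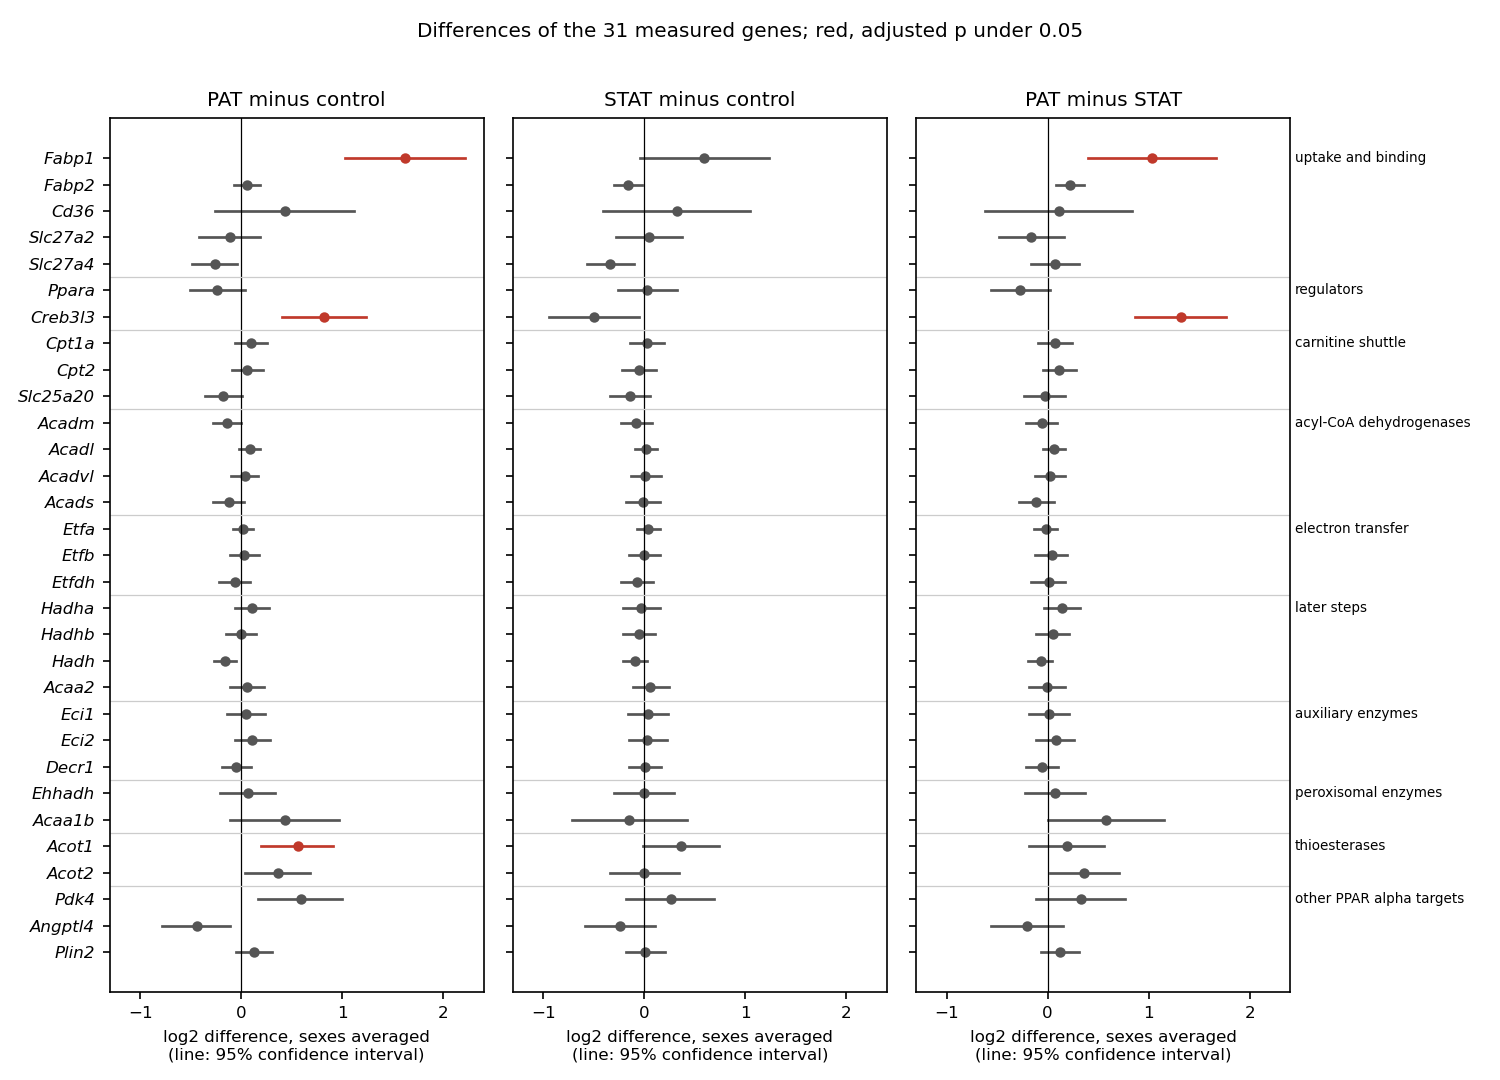
Differences on the log2 scale (x axis) of the 31 measured genes (y axis), sexes averaged, for PAT minus control, STAT minus control and PAT minus STAT; points are limma estimates, lines 95% intervals and red marks an adjusted p under 0.05. Fabp1, Creb3l3 and Acot1 are red in PAT minus control, none is in STAT minus control, and the mitochondrial genes lie close to 0.

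STAT mice were compared with the same control arrays, so these differences and those of PAT share their controls. None of the 31 members passed in STAT against control with the sexes averaged, where limma called 0% of the 18193 genes, and 3 members had an unadjusted p under 0.05 (9.68%, against 13.1% of all genes). Those 3 were Slc27a4 at -0.34 ± 0.11 (adjusted p = 0.26), Creb3l3 at -0.50 ± 0.21 (0.33) and Fabp2 at -0.16 ± 0.07 (0.33). Fabp1 was 0.59 ± 0.31 above control in STAT (interval -0.04 to 1.23, adjusted p = 0.41) and 1.62 ± 0.29 in PAT, while Acot1 was 0.36 ± 0.18 above in STAT (adjusted p = 0.39) and 0.56 ± 0.17 in PAT. The 17 mitochondrial genes ran from -0.14 to 0.06 in STAT on their brightest probe sets, with intervals within -0.34 to 0.24. Some dimmer probe sets lay outside this range in STAT against control. Among them were 2 of Cpt1a at 0.38 ± 0.17 and 0.52 ± 0.25 (adjusted p = 0.35 and 0.40 over all probe sets) and 1 of Slc25a20 at -0.28 ± 0.12 (0.34). Array weights changed this contrast to 5 calls, 2 higher and 3 lower: Fabp1 at 0.80 (adjusted p = 0.048), Acot1 at 0.52 (0.018), Creb3l3 at -0.65 (0.016), Fabp2 at -0.20 (0.017) and Slc27a4 at -0.36 (0.015). The share of all genes called with array weights is not given here, so this count is not read as a result about the members.

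The lowest values of Creb3l3 and Fabp2 lay on the 2 STAT male arrays with low enterocyte markers. Creb3l3 was also below all 8 control arrays in STAT female 3, at 10.09, where the enterocyte markers deviated by -0.07. In STAT males Creb3l3 read 10.71, 8.95 and 9.60 and Fabp2 read 14.55, 14.05 and 14.22, and the second and the third value of each belong to those arrays. The same 2 arrays were not low for every member: they read 10.34 and 10.31 for Acot1, above all 5 control males, and 9.80 and 10.31 for Pdk4. Without STAT male 1, only those 2 arrays remained as STAT males. In that fit the STAT minus control difference in males was called for Creb3l3 (-1.36, adjusted p = 0.003), Fabp2 (-0.43, adjusted p = 0.0039) and Acot1 (0.83, adjusted p = 0.031). STAT male 1, the array left out, read 10.71, 14.55 and 9.4 for these genes, beside control male means of 10.64, 14.57 and 9.5. Over the 12 processing alternatives this male difference ran from -1.17 to 0.07 for Creb3l3, -0.36 to -0.02 for Fabp2 and -0.09 to 0.82 for Acot1. With the sexes averaged, leaving out STAT male 1 also gave calls for Creb3l3 (-0.74, adjusted p = 0.023), Fabp2 (-0.23, 0.031) and Slc27a4 (-0.44, 0.023). The part of the enterocyte and smooth muscle markers in these values was not tested.

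In PAT against STAT, 2 of the 31 members were higher and 0 lower with the sexes averaged, where 5.88% of all genes were called, 2.89% higher and 2.98% lower. Creb3l3 was 2.5-fold higher, at 1.32 ± 0.21 (adjusted p = 0.00085). Its difference was 0.84 without STAT male 2 and STAT male 3, a fit in which STAT male 1 is the only STAT male. Fabp1 was 2.05-fold higher, at 1.03 ± 0.31 (adjusted p = 0.049), a call lost in 12 of 14 leave-one-out fits, all but those without STAT female 2 or PAT male 2 (up to 0.15). In males, where 8.71% of genes were called (3.47% higher and 5.24% lower), Creb3l3 (1.73 ± 0.29, 3.32-fold, adjusted p = 0.0013) and Fabp2 (0.37 ± 0.09, 1.29-fold, adjusted p = 0.018) were higher. Without STAT male 2 and STAT male 3, the STAT males were STAT male 1 alone, and the male differences were 0.77 for Creb3l3 and 0.09 for Fabp2. A single array gives no spread of its group, so no test of that fit is given. In females, where 0.863% of genes were called, 0 members passed, and 2 had an unadjusted p under 0.05 (6.45%, against 15.2% of all genes).

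Taken by sex, PAT against control gave 2 calls in males, Fabp1 and Creb3l3, where 9.02% of genes were called (2.34% higher and 6.68% lower), and 1 in females, Fabp1, where 3.35% were (2.27% higher and 1.08% lower). By the arrays alone, 13 members had all PAT females above all control females and 3 had them below, beside 14.7% and 13.2% of all genes. In males this held for 1 member above, Creb3l3, and 0 below, beside 1.75% and 5.29%. The 13 were Fabp1, Creb3l3, Acot1, Acot2, Pdk4, Plin2, Cpt2, Acadl, Acadvl, Hadha, Hadhb, Etfa and Etfb, and the 3 were Acadm, Hadh and Slc27a4. The difference between the PAT effects in females and in males was called in 0 of 31 members and in 0.0055% of genes. It was 0.33 ± 0.58 for Fabp1 (adjusted p = 0.78) and -0.05 ± 0.40 for Creb3l3 (adjusted p = 0.95). The smallest unadjusted p belonged to Etfa, the alpha subunit of the electron transfer flavoprotein, at 0.21 ± 0.10 (adjusted p = 0.27). In males and females separately, STAT against control called 0 members and 0% of all genes. At an unadjusted p under 0.05 there were 5 members in males (16.1%, against 15.7% of all genes) and 0 in females (against 3.31%). Control females and control males differed in 0 members, where 0.055% of genes were called, with Fabp1 at 0.76 ± 0.41 higher in females (adjusted p = 0.46). The STAT effects of the sexes differed in 0 members and in 0% of genes.

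The members differed widely in how much the arrays of a group scattered. The residual SD was 0.73 for Cd36, 0.63 for Fabp1, 0.57 for Acaa1b and 0.44 for Creb3l3, all at or above the 98.2nd percentile of the array's genes. It was 0.07 for Etfa and Acadl and 0.08 for Hadh, with medians of 0.141 over the mitochondrial members and 0.158 over all genes. Fabp1 and Creb3l3, which carried calls, were thus also among the members that scattered most. Of the 14 members with more than 1 probe set, 9 had all their probe sets on the same side of 0 in PAT against control.

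The mean deviation of the mitochondrial genes varied between arrays of a group. It was lowest on PAT male 2 (-0.25), PAT male 5 (-0.22) and control male 4 (-0.17), and highest on STAT female 2 (0.14). PAT male 2 held the lowest value of 11 of the 31 members and of 9 of the 17 mitochondrial ones. The 6 arrays whose sample titles carry the highest numbers all lay below average (-0.22 to -0.04), against 3 of the other 16 (-0.25 to 0.14). They were control male 4, control male 5, PAT male 5, STAT female 3, STAT male 2 and STAT male 3. They were thus unevenly divided over treatment and sex and hold both STAT males with low enterocyte markers, so title number is partly confounded with these. What the numbers stand for is not stated. With an indicator for them, 7 members were called in PAT against control, 4 higher and 3 lower, with Pdk4 at an adjusted p of 0.046, and Hadh (0.032), Angptl4 (0.033) and Slc27a4 (0.04) among the additions. The share of all genes called with this indicator is not given here, so the count is not read as a result about the members.

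**Figure D3:**
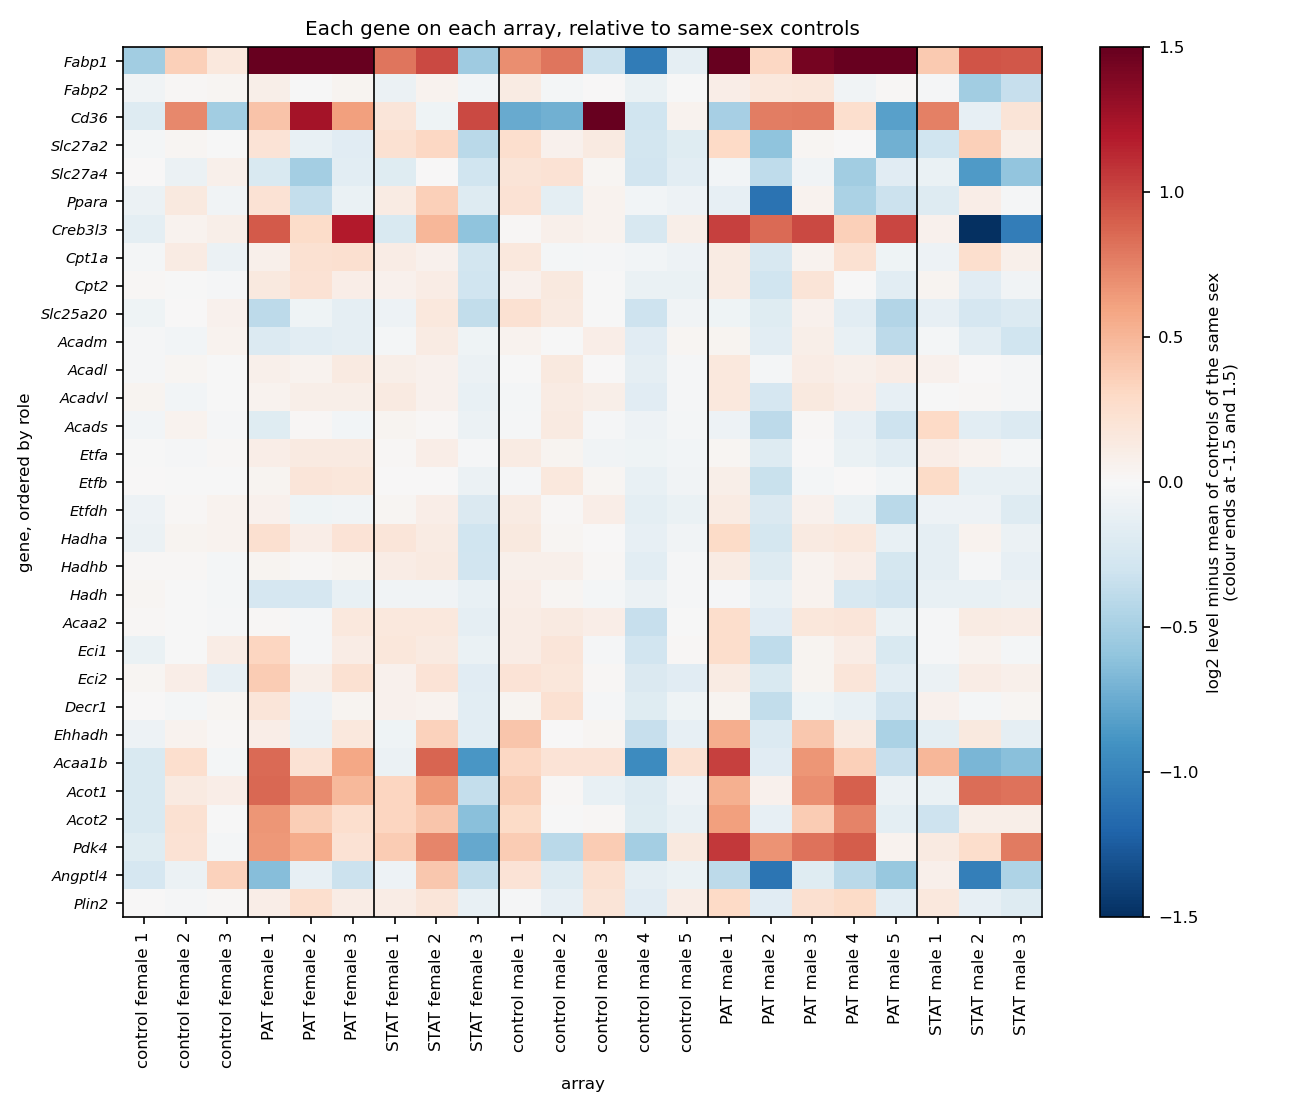
Each of the 31 genes (y axis, ordered by role) on each of the 22 arrays (x axis, by group), as the log2 difference from the mean of the control arrays of the same sex. Fabp1 and Creb3l3 stand out in PAT, STAT males 2 and 3 are low for Creb3l3, and the mitochondrial genes are pale except on arrays such as PAT male 2.

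Enterocyte, ileal and other cell type markers moved with PAT only in part. Of 10 measured enterocyte markers, 1 rose in PAT against control (Apoa4, an apolipoprotein of chylomicrons, 1.73, adjusted p = 0.0027) and 2 fell (Mep1a at -0.45 and Slc7a9 at -0.60). The log2 of their summed levels was 15.94 to 16.28 on the control arrays and 15.80 to 16.34 on the PAT arrays. Of 4 ileal markers Fabp6 rose (0.21), and of 5 proximal markers Slc40a1, the iron exporter, fell (-1.31). Of 6 stem cell markers Ascl2 fell (-0.58, adjusted p = 0.0061). Endothelial markers rose in 3 of 6, with summed levels of 9.57 to 10.12 in controls and 9.84 to 10.77 in PAT mice, and none of 6 smooth muscle markers was called (median -0.234). In PAT against STAT all 6 smooth muscle markers had an unadjusted p under 0.05 and were lower (median -0.51), of which 1 was called, and in males 4 of 10 enterocyte markers were called, each higher in PAT. The part of these markers in the results was not tested.

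Cd36 showed a wide spread that followed Adipoq, 1 of 4 measured adipocyte markers. It read 8.27, 9.19 and 7.94 in control females, 8.90, 9.72 and 9.08 in PAT females, 8.65, 8.40 and 9.46 in STAT females, 8.10, 8.13, 10.58, 8.56 and 8.91 in control males, 8.36, 9.62, 9.63, 9.11 and 8.04 in PAT males, and 9.61, 8.73 and 9.05 in STAT males. All groups overlapped. Adipoq, which encodes the adipocyte hormone adiponectin, ran from 4.14 on PAT female 1 to 12.08 on control male 3, the array with the highest Cd36. Of the other adipocyte markers, Retn was also highest on control male 3 (9.77), while 2 did not follow Adipoq. Cidea read 6.16 on PAT female 1 and had its lowest value, 5.33, on STAT male 1, where Adipoq read 10.95. Lep stayed between 3.80 and 4.77 on all arrays. Correlations are given for Adipoq only. Over the 22 arrays Cd36 correlated with Adipoq at Pearson r = 0.82 and Spearman rho = 0.85 (permutation p = 1e-05 for each, the smallest that 100000 permutations can give, adjusted p = 0.00031 over 31 relations). Leaving out the 2 arrays farthest from the median Adipoq gave r = 0.86, and removing the group means gave 0.85. It was 0.72 in 9 female arrays and 0.88 in 13 male arrays, and 0.85 and 0.66 in the 16 arrays with lower and the 6 with the highest title numbers. Cd36 was the only 1 of the 31 members whose correlation with Adipoq passed, and the relation was chosen after its values were seen. Adipoq itself differed by 0.32 ± 1.3 between PAT and control (adjusted p = 0.92).

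**Figure D4:**
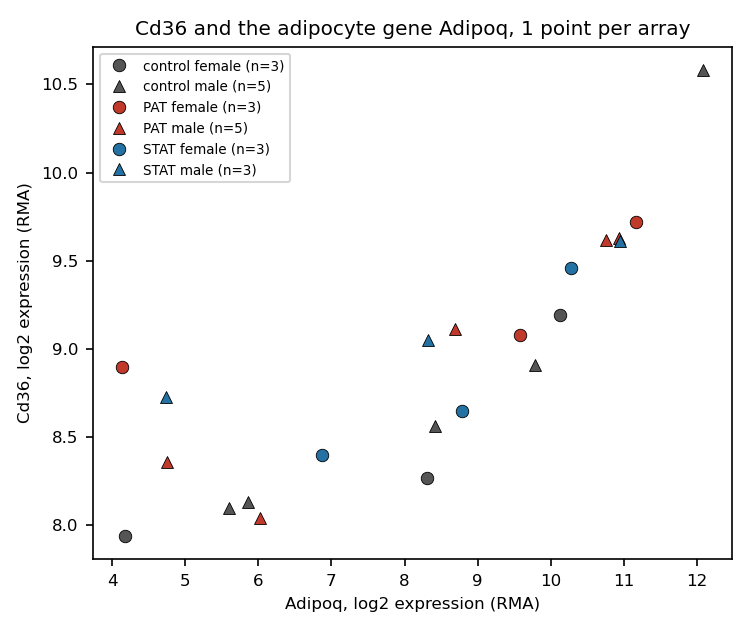
Log2 expression of Cd36 (y axis) against that of the adipocyte gene Adipoq (x axis), 1 point per array, coloured by treatment and shaped by sex. The points rise together over the 22 arrays (r = 0.82), and each treatment is found at both low and high Adipoq.

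The genes around the members were read from 6 lists that do not hold the members. In PAT against control with the sexes averaged, the 6 lists together held 8 higher and 4 lower genes. Over all 18193 genes the same contrast called 11%, 4.61% higher and 6.38% lower. The list counts stand beside these shares and are not read as a result about the lists. Among 17 measured genes of fatty acid entry and ketone bodies, 3 rose and 1 fell in PAT against control. The rises were in acyl-CoA synthetases, the enzymes that activate fatty acids: Acsl3 at 1.12 ± 0.18 (2.18-fold, adjusted p = 4e-04), Acsl4 at 0.53 ± 0.16 (0.032) and Acsl5 at 0.37 ± 0.10 (0.025). Oxct1, which starts the use of ketone bodies, fell by 0.28 (adjusted p = 0.043). Acsl3 kept its call in all 16 leave-one-out fits, while Acsl4 lost it in 8, Acsl5 in 4 (0.30 without PAT female 1) and Oxct1 in 11.

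Of 18 further PPAR targets, 3 rose: Hilpda, an inhibitor of triglyceride lipase (0.52 ± 0.12, adjusted p = 0.0073), Me1, the cytosolic malic enzyme (0.35 ± 0.10, 0.022), and Slc16a1, a monocarboxylate transporter (0.22 ± 0.07, 0.049). Of 14 genes of lipid droplets and lipolysis, G0s2, which inhibits the same lipase, rose by 0.70 ± 0.16 (adjusted p = 0.0081). Of 19 receptors and cofactors, Fgfr4, a fibroblast growth factor receptor, rose (0.41, adjusted p = 0.012), and Cited2, a cofactor of CBP and p300 (-0.45 ± 0.11, 0.0087) and Sirt3, a mitochondrial deacetylase (-0.22 ± 0.07, 0.036), fell. Of 16 peroxisomal genes Crot, the carnitine octanoyltransferase, fell (-0.57 ± 0.16, adjusted p = 0.027), and of 17 genes of the respiratory chain and citric acid cycle 0 passed, with differences of -0.07 to 0.12 and 1 at an unadjusted p under 0.05. In the leave-one-out fits Hilpda, G0s2, Fgfr4 and Cited2 kept their calls, while Me1 lost it in 3 (0.21 without PAT female 1, adjusted p = 0.053), Crot in 5, Sirt3 in 9 and Slc16a1 in 12. Under the 12 processing alternatives Hilpda, G0s2 and Cited2 kept theirs. Fgfr4 lost its call in 2 of these (0.1 to 0.5, adjusted p up to 0.23), Me1 in 2, Crot in 1, Sirt3 in 6 and Slc16a1 in 4. The medians of the 6 lists lay between -0.056 and 0.07, beside -0.005 over all genes.

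No gene of the 6 lists passed in STAT against control, where no gene of the array did. In PAT against STAT, Acsl3 (1.08), Acsl5 (0.73), Acox2 (0.59), Hilpda (0.52), G0s2 (0.72) and Lipe, the hormone-sensitive lipase (0.60), were higher, and Cited2 (-0.87, adjusted p = 1e-04), Rxrb (-0.27) and Pnpla8 (-0.23) were lower. With the sexes averaged, PAT against STAT called 5.88% of all genes, 2.89% higher and 2.98% lower. By sex, PAT against control called 9.02% of all genes in males, 2.34% higher and 6.68% lower. Among them were 10 genes of the lists, 4 higher and 6 lower. The higher ones were Acsl3 (1.32, adjusted p = 0.00084), Ppargc1a, a coactivator of PPAR alpha (0.53, 0.043), Hilpda (0.48, 0.04) and Acot5 (0.44, 0.039). The lower ones were Crot (-0.65, 0.046), Ppard (-0.46, 0.046), Acox3 (-0.35, 0.04), Rxrb (-0.28, 0.029), Bdh1 (-0.27, 0.045) and Sirt3 (-0.27, 0.046). In females, where 3.35% of all genes were called, 2 list genes were, both higher: G0s2 (1.17, 0.018) and Me1 (0.68, 0.021). In PAT against STAT, 13 list genes were called in males, 8 higher and 5 lower, led by Cited2 (-0.84, adjusted p = 0.0021) and Acsl3 (1.35, 0.0029), and 2 in females, Acsl5 (0.72, 0.037) and Cited2 (-0.90, 0.013). Beside these counts stand 8.71% of all genes in males and 0.863% in females. The difference of the PAT effect between the sexes was called for 0 genes of the lists (G0s2 0.94 ± 0.32, adjusted p = 0.16, and Me1 0.66 ± 0.19, adjusted p = 0.12).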

How the data were processed

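RNA of 22 terminal ileum samples was hybridised to Affymetrix arrays. The deposited table holds log2 values; per the submitters' processing notes the authors used affy and RMA, with versions not given in the sources used here. Of 45101 probe sets, 64 were controls, 34945 had 1 gene symbol, 932 several and 9160 none; each of 18193 genes was represented by its brightest probe set. In R 4.3.3, limma 3.58.1 fitted 1 mean per group to all 22 arrays (16 residual and 4.88 prior degrees of freedom), and p-values were Benjamini-Hochberg adjusted over all genes, with 0.05 as the threshold (both directions). Alternatives changed the probe-set choice, filter, scaling, samples, covariates and array weights. Sexes were averaged with equal weight. Named with values are the members called in a treatment contrast, the 4 uncalled ones of smallest p, up to 5 called genes a list in PAT minus control, and, outside this rule, further members and list genes of the other contrasts. Tested on simulated data for PAT minus control (18193 genes, 50 changed per size), the fit called 94%, 98%, 86% and 94% of genes changed by 0.5, 1, -0.5 and -1. It also made 11 false calls. The simulation used independent noise for each gene, randomly chosen genes and no arrays that stand apart. These shares therefore need not hold for the members that scattered most. The members and lists were chosen with earlier results of these data known. Array number limits the precision. Promoters came from RefSeq (28 of 32 members matched).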

Additional observations from a re-analysis of the deposited data

Results flagged for a closer look

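Within groups of 5 arrays, a lone array was far from the others in 5 of the 62 sets examined (the 31 genes in control and in PAT males), where chance gives about 1 in 20. The measure is the gap to the nearest array as a share of the group's range, against a critical value of 0.71. Control male 4 was low for Acaa1b (8.30, next 9.45, share 0.911), for Creb3l3 (10.40, next 10.66, share 0.787) and for Acaa2 (11.96, next 12.30, share 0.717). PAT male 4 was low for Creb3l3 (11.00, next 11.49, share 0.735), and control male 1 was high for Cpt1a (11.10, next 10.93, share 0.738).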

How the results depend on the processing

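No named result went from a call in one direction to a call in the other. Some estimates that were not called in the main fit changed sign between alternatives. In STAT against control males these included Creb3l3 (-1.17 to 0.07) and Acot1 (-0.09 to 0.82). With the sexes averaged they included Angptl4 in STAT against control (-0.3 to 0.03) and Slc27a4 in PAT against STAT (-0.15 to 0.12). Named results with the sexes averaged kept their side of the threshold for Fabp1 and Creb3l3 in PAT against control under all 12 alternatives (1.44 to 1.75 and 0.78 to 1.16). Calls over members or lists that moved by more than 1.5 times were as follows, with the main count first. The share of all genes called under each alternative is not given beside them, so they stand as counts only. PAT against control went from 3 to 5 with genes of a mean of at least 6, to 5 with only the groups compared and to 7 with the title-number indicator. In females it went from 1 to 2 with only the groups compared or the beta-actin covariate, and to 0 with the Gapdh covariate or without PAT female 1, STAT male 2 and STAT male 3 (an alternative chosen after seeing the data). In males it went from 2 to 1 with the Gapdh covariate. STAT against control went from 0 to 5 with array weights, and in males from 0 to 7. PAT against STAT went from 2 to 1 with probe sets averaged per gene, median centring, only the groups compared and the title-number indicator. In males it went from 2 to 1 with only the groups compared or the beta-actin covariate, and in females from 0 to 1 with the beta-actin covariate. The fits without STAT male 2 and 3 leave STAT male 1 as the only STAT male, so their counts against STAT are not given. Of the lists, peroxisomal oxidation went from 1 to 0 (Gapdh covariate) and 5 (title-number indicator), fatty acid entry from 4 to 2 (Gapdh covariate, and without all 3 arrays), receptors from 3 to 6 (mean of at least 6, title-number indicator), and lipid droplets from 1 to 2 (only the groups compared, both covariates, array weights, both fits without STAT male 2 and 3).

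Leaving out 1 array at a time gave 2 to 4 calls in PAT against control, 0 to 1 in females and 1 to 2 in males, 0 to 3 in STAT against control, 0 to 0 in females and 0 to 5 in males, and 1 to 2 in PAT against STAT, 0 to 0 in females and 1 to 3 in males. It gave 0 to 0 for the sex difference and both differences between sexes. For the lists it gave 0 to 4 for peroxisomal oxidation, 1 to 6 for fatty acid entry, 1 to 4 for other PPAR targets, 2 to 5 for receptors, 1 to 2 for lipid droplets and 0 to 0 for the respiratory chain. The share of all genes called in each of these fits is not given here, so they stand as counts only. The cause of the changes between fits was not tested. No paired analysis was possible because the labels give no replicate numbers shared between groups.

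Female groups and STAT males hold 3 arrays each, which limits the precision of their contrasts. The intervals are for single genes and not for the set.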
